A study of Sus scrofa with 4 samples.

Results

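The cells described here were the macrophages and monocytes of the pig endometrium, the lining of the uterus, on day 12 of pregnancy. They numbered 528 of the 8962 cells kept from 1 library, or 5.89% (95% exact binomial interval 5.41 to 6.40%), and 528 of the 33562 cells kept in all 4 libraries of the series. A cell belonged to the set when its UMIs, the molecules counted once each by a random tag, summed to 6 or more over 8 genes and included none for CD3E, a chain of the T cell receptor complex. The 8 genes were AIF1, C1QA, C1QB, C1QC, CSF1R, CD14, CD68 and CD163. Within the set, 388 cells with 10 or more CXCL10 UMIs were CXCL10-high and the other 140 were CXCL10-low.

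The series held single-cell 3' RNA libraries from Sus scrofa: the day 12 endometrium described here, the day 9 endometrium, the day 12 embryo and the day 9 embryo, with 1 library of each. Both endometria came from pregnant pigs, were digested to single cells and had red blood cells lysed before loading. Breed, age and the number of animals behind a library are not given in the sources used here. With 1 library on each day no difference between days had a replicate and none was tested. Because measured counts chose the cells, comparisons between these cells and those they were picked from are descriptions too. Intervals are at 95% and cover counting error only, not the spread between animals.

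Macrophages and monocytes are phagocytes that depend on the CSF1 receptor; tissue macrophages make the subunits of C1q, which starts the classical complement pathway, and clear dying cells. CXCL10 is a chemokine that interferons, above all interferon gamma, induce in myeloid cells, stroma and endothelium, and that draws T and NK cells bearing CXCR3. The pig conceptus is known for secreting interferon gamma and interferon delta around the time it attaches to the uterus.

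The 528 members carried 1978913 UMIs, with a median of 3163.5 UMIs and 1178.5 genes per cell, against 2200.5 UMIs and 1062 genes in the 8434 other kept cells of the library. Mitochondrial genes took a median of 1.98% of UMIs in members and 1.86% in the others. The rule passed over 20 day 12 cells that reached the sum but held CD3E. Of the members' cell barcodes, 1 also occurred among the kept cells of the day 9 endometrium, 2 in the day 12 embryo and 7 in the day 9 embryo. On day 9 the same rule took 609 of 7984 kept endometrial cells, or 7.63% (7.05 to 8.23%), with a median of 2584 UMIs.

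The genes of the rule marked the set unevenly. C1QB stood at 7223 counts per 1000000 UMIs (CPM, from UMIs summed over cells) in members and 82.3 CPM in the other cells. C1QC stood at 3101 against 39.2 CPM, and C1QA at 2437 against 27.3 CPM. These 3 genes, which encode the chains of C1q, lie side by side on chromosome 6, C1QA at 80586259 to 80589213, C1QC at 80592591 to 80597464 and C1QB at 80601680 to 80606076 (Sscrofa11.1, RefSeq gene models matched by symbol). AIF1, an actin-bundling protein of macrophages, was at 1348 against 37.5 CPM and had a UMI in 90.0% of members, the widest reach of the 8 genes. CSF1R, the receptor for CSF1 and IL-34, was at 502 against 11.2 CPM. The lysosomal protein CD68 stood at 166 against 3.79 CPM, with a UMI in 37.3% of members. CD14, the co-receptor for lipopolysaccharide, and the haemoglobin scavenger receptor CD163 were sparse, at 47.0 and 45.0 CPM in members against 13.2 and 0.213 CPM in the others, and had a UMI in 12.3% and 12.7% of members.

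Several myeloid genes the rule did not use were also higher in members. SPI1, the transcription factor PU.1 of myeloid cells, was at 328 CPM in members and 10.1 CPM in the other cells. The adaptor TYROBP was at 1938 against 77.5 CPM and FCER1G, the Fc receptor gamma chain, at 1807 against 86.1 CPM. All 11 measured genes (at 5 CPM or more in either group) of a list of Fc and pattern receptors and their adaptors were higher in members, with a median log2 ratio of 3.37. Of 11 resident macrophage genes 8 were higher and 1 lower. Monocyte and granulocyte genes were split, with 5 of 12 higher and 5 lower. Of 8 dendritic cell genes 5 were higher and 2 lower, and that list summed to 499 CPM in members against 137 CPM in the others. In the comparison as a whole, 9.38% of 10430 genes were higher and 30.2% lower, where a call needs a 2-fold ratio whose interval leaves out 1. The rule used this contrast, so nothing is read from these counts.

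RNA of other cell types was present in the set. Markers of stroma summed to 7618 CPM in members and 39507 CPM in the other cells, with a median of 8 UMIs per member (0 to 465), and 491 members held at least 3 of them. T cell markers summed to 205 CPM in members against 213 CPM in the others. CD3E, which the rule barred, and CD3G were at 0 in members. Of 7 measured T cell genes 6 were lower and 1 was higher, with a median log2 ratio of -1.96, beside 9.38% higher and 30.2% lower over all genes. Epithelial markers summed to 113 against 396 CPM, endothelial markers to 192 against 513 CPM and NK markers to 325 against 957 CPM, and erythroid markers were at 0 in members. Mast cell markers summed to 187 CPM in members against 82.8 CPM in the others, with 3 or more UMIs in 53 members. Of 3 measured mast cell genes, though, 1 was higher and 2 were lower, with a median log2 ratio of -1.39. B and plasma cell markers summed to 1913 against 5788 CPM. Of the 3555 JCHAIN UMIs in members, 3100 lay in 1 cell, a CXCL10-low cell with a rule sum of 6, and JCHAIN, the joining chain of secreted antibodies, stood at 232 CPM without it. That cell and 8 cells with 3 or more epithelial UMIs are left out in the values given "without other-lineage cells", which leave 519 members.

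In members with a rule sum of 6 or 7, CXCL10 and CCL8 lay below their levels over all members, 10701 and 8337 CPM. The 35 cells with a rule sum of 6 or 7 had TYROBP at 1638 CPM and SPI1 at 261 CPM, and the 29 cells at 8 or 9 had TYROBP at 2146 CPM. Just outside, the 99 cells with a sum of 4 or 5 had TYROBP at 1138 CPM and SPI1 at 104 CPM, and the 523 cells at 2 or 3 had TYROBP at 138 CPM. CXCL10 was at 4258 CPM in the cells at 6 or 7 and at 4559 CPM in those at 4 or 5, while CCL8 was at 715 CPM in the cells at 6 or 7 and 391 CPM in those at 4 or 5.

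Among the 20 genes with the highest ratios outside the rule were the chemokine CCL8, complement and scavenger receptors and inflammasome genes. CCL8, a chemokine for monocytes and T cells (chromosome 12, 40740468 to 40741970), stood at 8337 CPM in members and 82.2 CPM in the others, 101-fold (96.8 to 106), and members held 89.5% of the library's CCL8 UMIs. C4BPA, which encodes a chain of the C4b-binding protein that restrains complement, stood at 2082 against 24.9 CPM, 83.7-fold (76.7 to 91.4). TIMD4, a phosphatidylserine receptor of resident macrophages that binds dying cells, was at 91.0 against 0.724 CPM, 126-fold (76.3 to 220). The same direction held for the scavenger receptor MSR1 at 88.4 against 1.45 CPM and the complement receptor VSIG4 at 60.1 against 0.724 CPM. P2RY12, a purine receptor best known from microglia, stood at 59.1 against 0.937 CPM. Inflammasome genes were among them, with CASP1 at 266 against 7.28 CPM and NLRP3 at 125 against 3.32 CPM. The oxidase subunit named GP91-PHOX in the files was at 196 against 5.67 CPM, and the inhibitory receptor HAVCR2, also called TIM-3, at 139 against 3.79 CPM. Further genes of this kind were BANK1, PLBD1, TFEC, CALHM6, DHRS9, FGD2, ADORA3, PTPRO and CD180, at 95.5 to 194 CPM in members.

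At the other end were genes of the stroma and its matrix. WFDC1 was at 7.07 CPM in members and 102 CPM in the others, 14.5-fold lower, MFAP4 at 12.6 against 112 CPM and A2M at 17.7 against 148 CPM. THBS1, thrombospondin-1, was at 26.3 against 215 CPM and PI16 at 83.4 against 615 CPM. CCN1, PCDH18, TINAGL1, CREB3L1 and SH3BGRL2 completed the 10 lowest genes, at 6.57 to 28.3 CPM in members.

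Genes of antigen presentation through MHC class II were higher in members than in the other cells. All 11 measured genes of a list of class II chains, their helpers and costimulators were higher, with a median log2 ratio of 2.76. Of 4 class I genes 0 were higher. Over all genes of this comparison 9.38% were higher and 30.2% lower. The rule chose the cells of this contrast, so these counts are descriptions. CD74, the invariant chain, was at 29208 CPM in members and 5976 CPM in the others, and SLA-DQB1 at 8453 against 1168 CPM. SLA-DMB, which helps load peptides, was at 1674 against 223 CPM. The costimulatory genes followed: CD83 was at 652 against 35.0 CPM, CD86 at 133 against 10.6 CPM and CD40 at 219 against 56.9 CPM. Reads of near-identical genes, such as the MHC genes, the GBP family, CCL4 and its copies, may be split or shared in counting, so single values of these genes are uncertain.

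Cytokine and lysosome genes were mostly higher too. Of 13 chemokine genes 7 were higher and 2 lower, and of 13 inflammatory genes 7 were higher and 1 lower. TNF, a central inflammatory cytokine, stood at 1121 CPM in members, 22.4-fold (20.9 to 24.1) above the others, CCL4 at 6039 against 939 CPM and CXCL8, which draws neutrophils, at 491 against 29.6 CPM. PTGS2, the inducible cyclooxygenase of prostaglandin synthesis, was at 383 against 37.9 CPM, and the cytokine subunit IL27 at 44.0 against 0.9 CPM. Of 18 lysosome genes 12 were higher and none lower, among them CTSS at 1681 against 248 CPM, while the protease inhibitor CST3 stood at 31863 against 1473 CPM. Of 10 cell cycle genes 9 were higher, among them TOP2A at 61.7 against 12.3 CPM and UBE2C at 86.9 against 22.3 CPM, but the list's median log2 ratio was -3.22 in the 35 members with under 3 UMIs of other lineages. Of 18 genes known to follow interferon gamma 6 were higher and none lower, with a median log2 ratio of 0.60, and of 22 type I interferon genes 3 were higher and 1 lower, with a median of -0.17, beside 9.38% higher and 30.2% lower over all genes. GBP1, a guanylate-binding GTPase, stood at 1349 against 789 CPM and ISG15 at 922 against 1717 CPM.

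**Figure D1:**
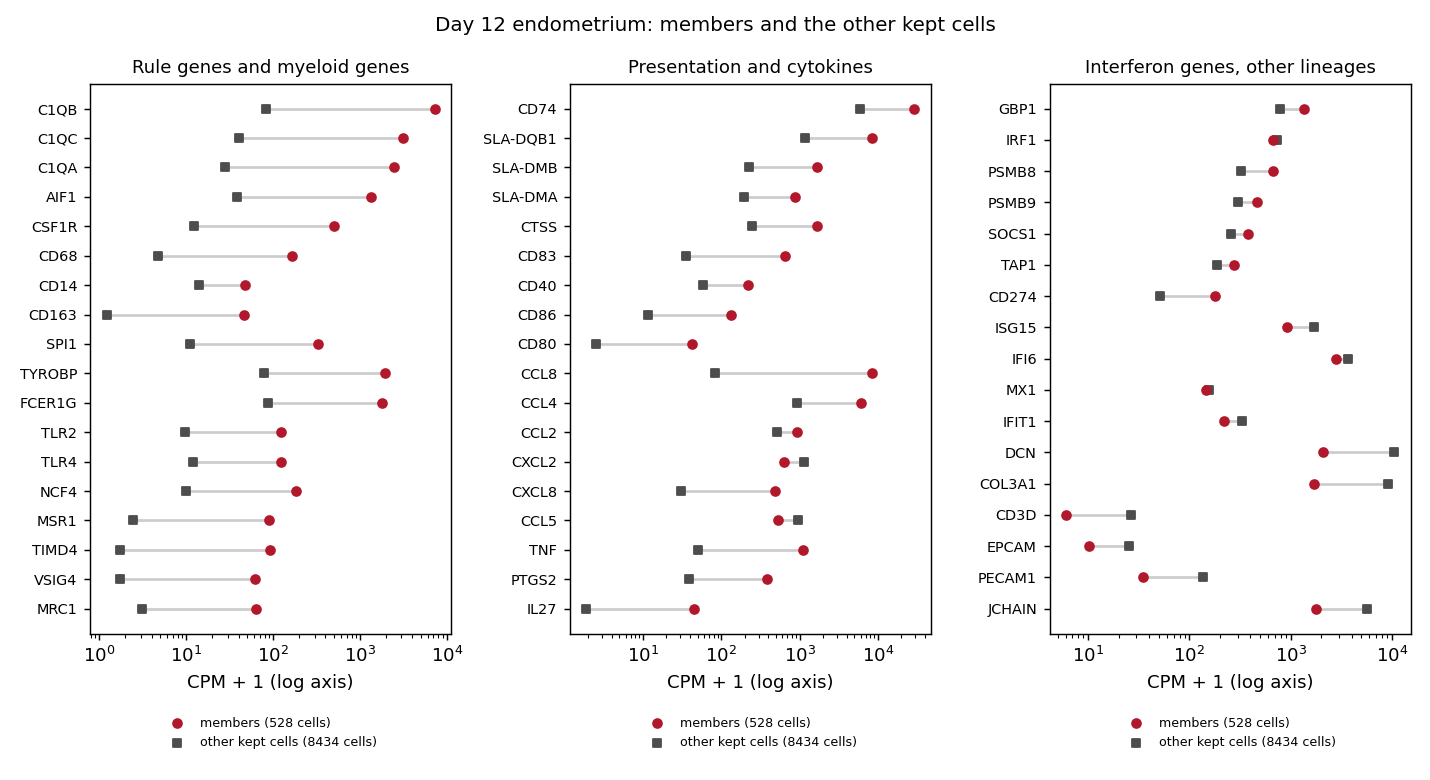
Level of selected genes in the 528 members (red dots) and the 8434 other kept cells of the day 12 endometrium (grey squares), in CPM plus 1 on a log axis, from UMIs summed over cells of 1 library, with genes of the rule and of myeloid cells on the left, of presentation and cytokines in the middle, and of the interferon response and other lineages on the right. C1QB lies at 7223 CPM in members against 82.3 CPM in the others, whereas GBP1 lies at 1349 against 789 CPM and DCN at 2103 against 10497 CPM.

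CXCL10 (chromosome 8, 71693641 to 71695948, between CXCL9 and CXCL11) had 21176 UMIs in the members, 35.0% of the library's. Its level was 10701 CPM (10557 to 10846) in members and 1672 CPM in the other cells of day 12. Per cell the count ran between 0 and 228 UMIs with a median of 29. In 32 members there was no CXCL10 UMI, 39 held 1 or 2, 69 held 3 to 9, 128 held 10 to 29, 215 held 30 to 99 and 45 held 100 or more. Among the other cells of day 12, 3722 of 8434 held none and 33 held 100 or more. The 2 groups of cells therefore overlapped over the whole range, and the threshold of 10 UMIs fell within a continuous spread of members. The CXCL10-high cells made up 73.5% of members (69.5 to 77.2%) and had a median of 3392.5 UMIs, against 2590.5 in CXCL10-low cells.

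**Figure D2:**
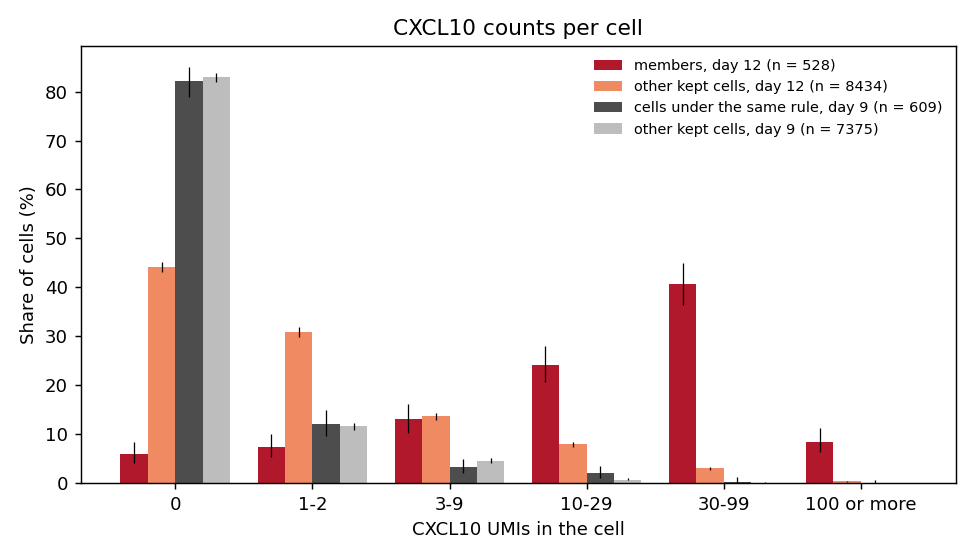
Share of cells, in percent, at each number of CXCL10 UMIs, for the 528 members of day 12, the 8434 other cells of day 12, the 609 cells under the same rule on day 9 and the other cells of day 9, with exact binomial 95% intervals as bars. Of day 12 members 6.06% held no CXCL10 UMI and 40.7% held 30 to 99, whereas 82.1% of the day 9 cells under the rule held none.

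CXCL10 was not limited to the members. With every cell thinned to 1000 UMIs, 86.9% of members (83.8 to 89.7%) had a CXCL10 UMI, against 39.1% of the other cells. Cells with stromal markers stood at 41.3% and 1645 CPM, cells with endothelial markers at 41.9% and 2573 CPM, cells with T cell markers at 23.5% and 386 CPM, and cells with epithelial markers at 14.5% and 121 CPM. CXCL10 gave 1.48 UMIs per C1QB UMI in members, but 29.7 in stromal and 66.8 in endothelial cells, so their CXCL10 was not in that ratio. In T cells it gave 1.12 and in epithelial cells 1.72 per C1QB UMI. CCL8 gave 1.15 UMIs per C1QB UMI in members, 1.06 in stromal, 1.15 in endothelial, 0.576 in T and 0.469 in epithelial cells. The part of free RNA in the CXCL10 and CCL8 of cells outside the members was not tested. CXCR3, the receptor of CXCL10, was at 2.53 CPM in members and 17.9 CPM in T cells.

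CXCL10-high members held more RNA of other chemokines than CXCL10-low members. Against a background of 1.69% of 9459 genes higher and 4.32% lower, 8 of 12 chemokine genes were higher. CXCL10 itself chose the 2 subsets and is on no list; the counts describe the split and nothing is read from them. CCL8 stood at 9763 CPM in CXCL10-high and 3223 CPM in CXCL10-low members, 3.03-fold (2.87 to 3.20). CCL4, a chemokine for monocytes and T cells, was at 7022 against 2511 CPM, 2.80-fold (2.63 to 2.98), and CXCL8 at 584 against 155 CPM, 3.76-fold (2.93 to 4.89). CXCL2, another neutrophil chemokine, was at 716 against 313 CPM. Of the inflammatory list 3 of 13 genes were higher: TNF at 1285 against 536 CPM, PTGS2 at 443 against 167 CPM and IL27 at 53.0 against 11.6 CPM. IL27 had a UMI in 62 CXCL10-high and 5 CXCL10-low cells. CXCL11, the closest neighbour of CXCL10 on the chromosome and by receptor, was at 78.8 against 16.2 CPM, but 65 of the 122 UMIs in CXCL10-high cells came from 1 cell.

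Several other higher genes encode surface proteins or regulators. TIMD4 was at 109 CPM in CXCL10-high and 27.8 CPM in CXCL10-low members, 3.90-fold (2.18 to 7.70), with a UMI in 102 of 388 and 10 of 140 cells. CD274, which encodes the checkpoint ligand PD-L1, was at 209 against 67.2 CPM, 3.11-fold (2.13 to 4.72). BATF2, a transcription factor of the interferon response, was at 221 against 74.2 CPM, and SLAMF7 at 78.8 against 25.5 CPM. BIRC5, or survivin, a protein of cell division, was at 60.1 against 13.9 CPM, and was the 1 gene of 10 on the cell cycle list that was higher. STX11, OLR1, SHTN1 and TNFAIP6 were 3.26-fold to 3.66-fold higher. OLR1 and SHTN1 had log2 ratios of -1.54 each in the 25 CXCL10-high and 10 CXCL10-low members with under 3 UMIs of other lineages. Without other-lineage cells both stayed higher, with 101 against 7 UMIs for OLR1 and 92 against 8 UMIs for SHTN1. HPS5 was at 123 against 34.8 CPM, with 117 of 190 UMIs in 1 cell.

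Most interferon-induced genes differed little between the subsets. Of the interferon gamma list 3 of 18 genes were higher, CXCL9, CXCL11 and CD274, and of 22 type I interferon genes none was, with median log2 ratios of 0.43 and 0.03. GBP1 stood at 1411 CPM in CXCL10-high and 1127 CPM in CXCL10-low members. Of 11 genes on the class II and costimulator list CD80 and CD83 were higher, and none of 11 Fc and pattern receptor genes or of 12 genes known to respond to tissue digestion was. NFKBIA, an inhibitor and target of NF-kB, was at 1705 against 895 CPM.

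The genes lower in CXCL10-high members rested mostly on a few CXCL10-low cells. JCHAIN was at 222 CPM in CXCL10-high and 7445 CPM in CXCL10-low members, and 3100 of the 3211 CXCL10-low UMIs came from the 1 cell named above. VPREB1, a surrogate light chain of B cell precursors, was at 1.29 against 116 CPM, with 50 UMIs in 6 CXCL10-low cells. ACP5 (158 of 205 UMIs), MEP1B (41 of 43), UABP-2 (50 of 55), CD69 (30 of 46) and GPX3 (18 of 30) had most of their CXCL10-low UMIs in 1 cell. Without other-lineage cells JCHAIN, ACP5, MEP1B and UABP-2 were called neither way, and VPREB1, MZB1, CD69, CST7, GPX3 and SLC39A2 stayed lower. All 15 named higher genes stayed higher in that comparison, which leaves out 9 cells. B and plasma cell markers summed to 326 CPM in CXCL10-high and 7607 CPM in CXCL10-low members, where 1 cell held 3115 of these UMIs and no other cell held 10. Stromal markers summed to 6962 against 9970 CPM, NK markers to 268 against 533 CPM and epithelial markers to 85.9 against 209 CPM. Their part in these differences was not tested.

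Across the bins of CXCL10 count, the chemokines took a different course from the interferon-induced genes GBP1 and IRF1. CCL8 stood at 4979, 2667, 2932, 7674, 9719 and 13755 CPM in members with 0, 1 to 2, 3 to 9, 10 to 29, 30 to 99 and 100 or more CXCL10 UMIs. CCL4 stood at 3522, 2403, 2227, 5379, 6550 and 11875 CPM, and TNF at 1071, 455, 398, 863, 1202 and 2381 CPM in the same bins. These 3 genes were thus lowest in members with a few CXCL10 UMIs, not in those with none. C1QB, a gene of the rule, took a like course, at 7224, 3928, 4778, 6757, 7741 and 10284 CPM. The median rule sum in the same bins was 23, 18, 25, 38, 52 and 104 UMIs. PTGS2 climbed over all 6 bins, at 77.4, 136, 214, 303, 438 and 720 CPM. GBP1 stayed between 1058 and 1531 CPM and IRF1 between 560 and 813 CPM. Some other interferon-induced genes did not stay level: BATF2 stood at 64.5, 87.8, 70.0, 141, 239 and 297 CPM. SOCS1 stood at 464, 279, 267, 336, 386 and 545 CPM, and CD274 at 116, 112, 26.3, 229, 187 and 262 CPM. Median depth was 2250.5 UMIs per cell in the bin without CXCL10 and 4674 UMIs in the highest bin. The part of depth and of C1q content in these courses was not tested.

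**Figure D3:**
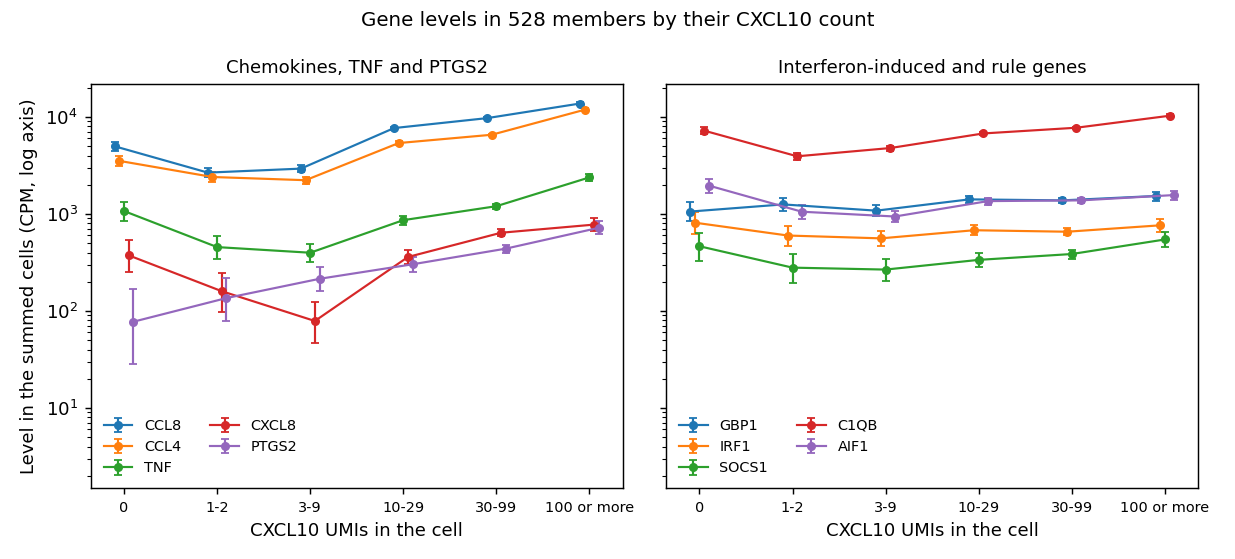
Level in CPM (log axis) of CCL8, CCL4, TNF, CXCL8 and PTGS2 on the left and of GBP1, IRF1, SOCS1, C1QB and AIF1 on the right, in day 12 members binned by their number of CXCL10 UMIs, with exact Poisson 95% intervals as bars. PTGS2 lies at 77.4 CPM in the bin with no CXCL10 UMI and at 720 CPM in the bin with 100 or more, whereas GBP1 lies between 1058 and 1531 CPM in all 6 bins.

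Ranked over 2217 genes in the 528 members, each thinned to 1000 UMIs, the pattern most like that of CXCL10 was that of CCL8, with a Pearson correlation of 0.48 on the log scale. BCL2A1, a survival protein of the BCL2 family, and CCL4 followed at 0.42 each, then PLEK, or pleckstrin, at 0.40 and SLA-DQB1 at 0.38. These cells share 1 library and its free RNA, and the values are descriptions.

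On day 12, genes induced by interferon gamma were higher than in the 609 cells under the same rule on day 9. All 18 measured genes of that list were higher, with a median log2 ratio of 2.42, against a background of 7.10% of 10269 genes higher and 19.2% lower. GBP1 (chromosome 4, 127425699 to 127442132) stood at 1349 CPM on day 12, against 29.2 CPM on day 9, 46.3-fold (36.7 to 59.2), and CXCL10 at 10701 against 230.5 CPM, 46.4-fold (42.7 to 50.5). SOCS1, the feedback inhibitor of this pathway, was at 376 against 32.8 CPM, 11.5-fold (9.14 to 14.6), and the transcription factor IRF1 at 665 against 199 CPM. The immunoproteasome subunits PSMB8 and PSMB9 were at 675 against 153 CPM and 466 against 77.9 CPM, and the peptide transporter TAP1 at 276 against 38.7 CPM. CD274 was at 178 against 18.8 CPM, and IDO1, which breaks down tryptophan, at 47.0 against 3.2 CPM.

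On day 9 CXCL10 lay in few of the cells under the rule. After thinning, 9.52% of them and 9.67% of the other day 9 cells had a CXCL10 UMI. Of the 609 cells 15, or 2.46% (1.38 to 4.03%), reached 10 CXCL10 UMIs, against 388 of 528 on day 12, with a median of 0 and a highest count of 83 UMIs. The tenth of these day 9 cells with the most CXCL10 held 91.5% of its UMIs, so the day 9 level rests on a small number of cells.

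The same direction was seen outside the members. In the other kept cells of the endometrium 16 of 17 interferon gamma genes were higher on day 12, with a median log2 ratio of 2.19, where 7.07% of 10681 genes were higher and 8.20% lower. There GBP1 was at 789 CPM on day 12, against 28.4 CPM on day 9. Whether the day difference was larger in members than in the other cells was not tested, with 1 library on each day.

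Most type I interferon genes were called neither way. Of 22 genes 5 were higher and 1 lower on day 12, with a median log2 ratio of 0.06, and in the other cells 4 of 23 were higher and 2 lower. ISG20, an exonuclease, was at 129 CPM on day 12, against 5.99 CPM on day 9, 21.6-fold (12.9 to 39.1), and IFIT1 at 216 against 86.7 CPM. IFI6 was lower at 2796 against 6525 CPM, 2.33-fold (2.26 to 2.41), while ISG15 stood at 922 against 764 CPM and MX1 at 145 against 172 CPM.

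Resident macrophage genes were mostly lower on day 12: 9 of 14 were lower and 1 higher, with a median log2 ratio of -1.36 against -0.21 over all genes. CD209, a lectin that binds mannose-bearing pathogens (chromosome 2, 71394414 to 71397711), had 5 UMIs in 4 cells on day 12 and 1112 UMIs in 120 cells on day 9, or 2.53 against 444 CPM, 176-fold lower (75.1 to 542). The hyaluronan receptor LYVE1 was at 1.52 against 89.1 CPM, 58.8-fold lower (19.9 to 287), and the folate receptor FOLR2 at 31.3 against 284 CPM, 9.05-fold lower (6.98 to 11.9). The mannose receptor MRC1 was at 62.2 against 156 CPM, VSIG4 at 60.1 against 195 CPM, and the transcription factor MAF at 54.6 against 147 CPM. The exception was TIMD4 (chromosome 16, 66253572 to 66292963) at 91.0 against 12.0 CPM, 7.59-fold higher (5.14 to 11.6). Of the genes of the rule, CD163 was at 45.0 against 209 CPM, CD14 at 47.0 against 191 CPM and AIF1 at 1348 against 556 CPM, which the rule's sum can shape.

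Cytokine genes moved in both directions. TNF was at 1121 CPM on day 12, against 284 CPM on day 9, PTGS2 at 383 against 32.8 CPM, 11.7-fold (9.30 to 14.9), and CCL8 at 8337 against 1344 CPM, 6.20-fold (5.98 to 6.44). IL10, which restrains inflammation, was lower at 19.2 against 140 CPM, 7.30-fold (5.22 to 10.5), and CXCL2 was lower at 628 against 3017 CPM. Growth factor genes had none higher and 5 of 13 lower, among them HBEGF at 214 against 484 CPM and PDGFB at 13.1 against 57.5 CPM. The checkpoint and suppressor list had 5 of 9 higher and 1 lower. HAVCR2 (chromosome 16, 66138157 to 66160568) was among the higher genes, at 139 against 9.99 CPM, 14.0-fold (9.26 to 22.0). Further genes of the 12 highest were FMO1, BATF2, KIF9, LY6D, C15orf48 and GBP2, and HPS5, whose UMIs lay mostly in 1 cell.

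Proliferation genes were higher as well. Of 10 cell cycle genes 9 were higher on day 12, with a median log2 ratio of 2.47, and 5 of 8 were higher in the other cells, with a median of 1.55. TOP2A, a topoisomerase of dividing cells, was at 61.7 CPM on day 12, against 5.99 CPM on day 9, with 122 against 15 UMIs, and UBE2C at 86.9 against 7.19 CPM, 12.1-fold (7.42 to 20.9).

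Epithelial RNA differed between the days and touched part of this comparison. Epithelial markers summed to 113 CPM in the day 12 members and 861 CPM in the day 9 cells, where 60 cells held 3 or more and had a median of 9635 UMIs. CCL28, ALDH1A3, SPDEF and MSX1 were among the 12 lowest genes. Without other-lineage cells CD209 alone of these 12 was again among the 12 lowest, and the count of lower genes fell to 883, against 1968 with them. The interferon gamma list then still had 18 of 18 genes higher, the resident list 10 of 14 lower and 1 higher, and the cell cycle list 9 of 10 higher. The class II and costimulator list had 6 of 11 genes higher with these cells and 1 of 11 without them. In that smaller comparison the lowest genes were CD209 at 2.63 CPM on day 12, against 687 CPM on day 9, LYVE1 at 1.58 against 134 CPM and CTSL, a lysosomal protease, at 9.45 against 389 CPM, 41.2-fold lower. DNASE1L3, TREM2 and IL10 were also among the 12. Among C1q-rich cells of both days, where 5.99% of 9784 genes were higher and 8.45% lower, the interferon gamma list again had 18 of 18 higher and the resident list 10 of 14 lower. The part of other-lineage RNA in the remaining differences was not tested.

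**Figure D4:**
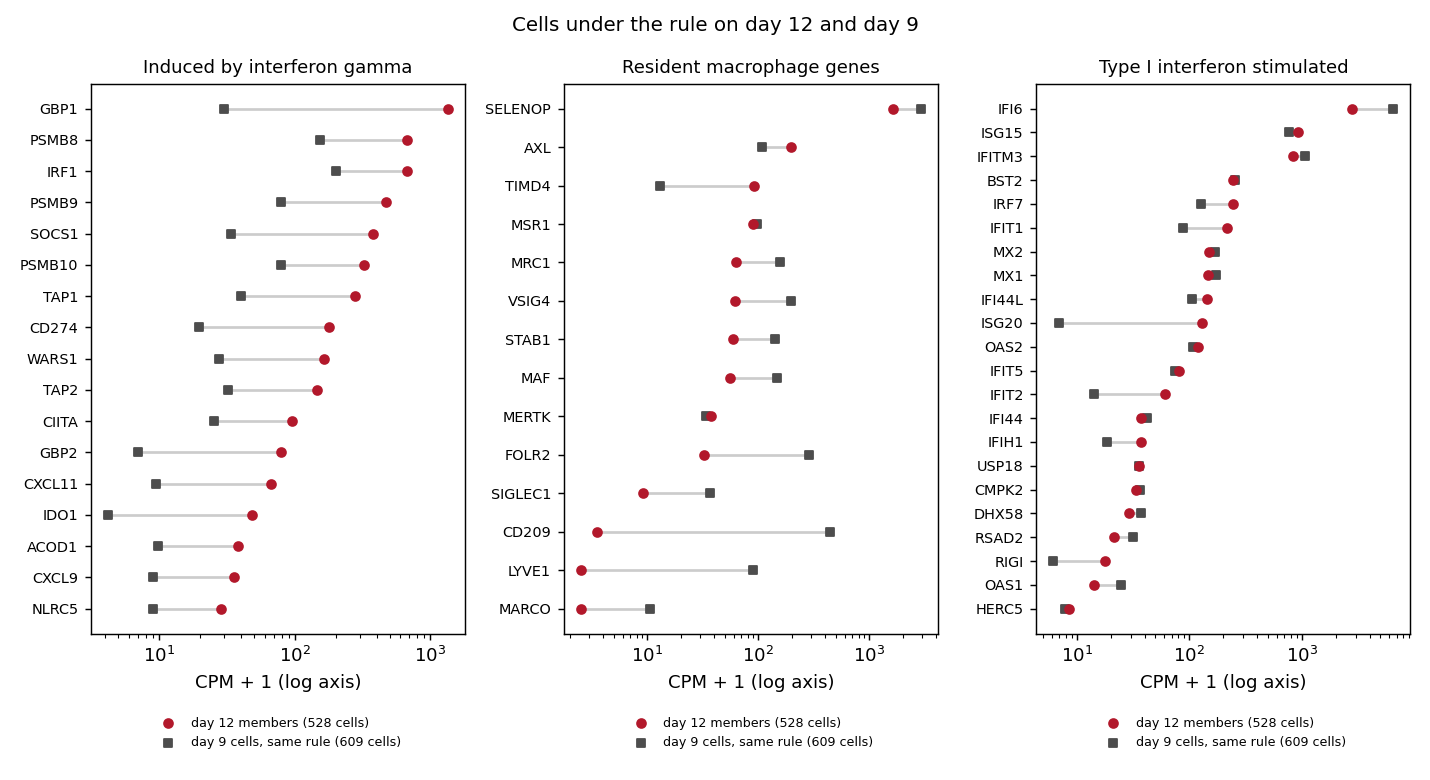
Level in CPM plus 1 (log axis) of genes induced by interferon gamma, genes of resident macrophages and type I interferon genes in the 528 day 12 members (red dots) and the 609 day 9 cells under the same rule (grey squares), from UMIs summed over cells, with 1 library on each day. Every interferon gamma gene shown lies higher on day 12, CD209 lies at 2.53 CPM on day 12 against 444 CPM on day 9, and ISG15 lies at 922 against 764 CPM.

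Members fell into a C1q-rich majority and a C1q-poor minority. With 10 or more UMIs over the 3 C1q genes, 386 members were C1Q-high, or 73.1%, and with 2 or fewer, 123 were C1Q-low, or 23.3% (19.8 to 27.1%), while on day 9 C1Q-low cells numbered 27 of 609, or 4.43%. This split was chosen after the values were seen and its C1q, CSF1R and AIF1 values follow from the rules. C1Q-low cells had a median of 4141 UMIs and C1Q-high cells 2733.5. Both carried myeloid genes outside the rule: SPI1 stood at 380 CPM in C1Q-low and 316 CPM in C1Q-high cells, TYROBP at 2515 against 1736 CPM and CD74 at 28390 against 30587 CPM.

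Few monocyte genes and some dendritic cell genes were higher in C1Q-low cells. Of 12 monocyte and granulocyte genes 2 were higher, CCR2 among them, and 1 was lower, with a median log2 ratio of 0.25, and of 7 dendritic cell genes 3 were higher and none lower, with a median of 0.82. Over all 9506 genes 2.76% were higher and 4.49% lower. S100A4, a calcium-binding protein, was at 321 CPM in C1Q-low and 49.0 CPM in C1Q-high cells, 6.55-fold (4.91 to 8.83). CCR2, the receptor by which monocytes leave the marrow, was at 47.5 against 5.4 CPM, and FLT3, the growth factor receptor of dendritic cells, at 27.2 against 1.5 CPM. AREG, which encodes the growth factor amphiregulin, was at 134 against 13.8 CPM, 9.73-fold. HK3, a hexokinase of myeloid cells, was at 146 against 22.2 CPM, and FCRLA was found in 25 C1Q-low and 3 C1Q-high cells. MS4A2, a chain of the IgE receptor on mast cells, was at 357 against 85.8 CPM, and mast cell markers summed to 375 against 103 CPM. Only 1 of 3 measured mast cell genes was higher, and none was lower. The part of mast cell RNA was not tested.

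The resident macrophage list had 11 of 12 genes lower and none higher in C1Q-low cells. C4BPA stood at 13.6 CPM in C1Q-low and 3140 CPM in C1Q-high cells, 231-fold lower (117 to 536), with a UMI in 7 of 123 and 156 of 386 cells. APOE, the lipid carrier, was at 328 against 3294 CPM, 10.1-fold lower, MRC1 at 6.79 against 91.1 CPM and MAF at 6.79 against 79.7 CPM. RNF128, PLTP, HTRA1, MSR1, CX3CR1, STAB1 and DAB2 were lower by the same rule for named genes. Of 12 chemokine genes 8 were lower and 2 higher: CCL8 was at 1766 against 11762 CPM, CCL4 at 1735 against 8259 CPM and CXCL8 at 127 against 683 CPM, and TNF was at 346 against 1523 CPM. CXCL10 differed less, at 6939 CPM in C1Q-low and 12865 CPM in C1Q-high cells. It reached 10 UMIs in 67.5% of C1Q-low cells (58.4 to 75.6%) and 76.7% of C1Q-high cells (72.1 to 80.8%). This threshold was not adjusted for depth, which had a median of 4141 UMIs in C1Q-low and 2733.5 UMIs in C1Q-high cells. GBP1 stood at 1436 against 1320 CPM.

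**Figure D5:**
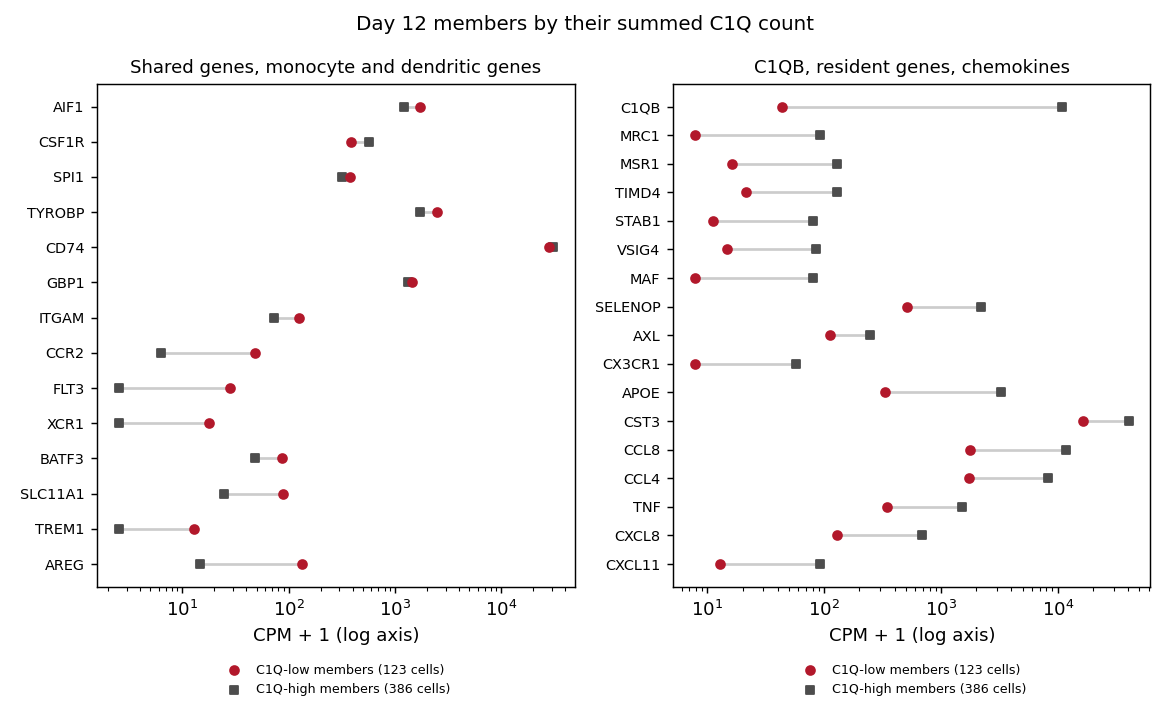
Level in CPM plus 1 (log axis) of selected genes in the 123 C1Q-low members (red dots) and the 386 C1Q-high members (grey squares) of the day 12 endometrium, from UMIs summed over cells of 1 library. APOE lies at 328 CPM in C1Q-low against 3294 CPM in C1Q-high cells and AREG at 134 against 13.8 CPM, whereas GBP1 lies at 1436 against 1320 CPM.

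In the day 12 embryo the rule took cells without the C1q genes or CSF1R. It took 179 of 6764 kept day 12 embryo cells, or 2.65% (2.28 to 3.06%). AIF1 had a UMI in all 179, with 1338 UMIs, while CD14 had 35 UMIs in 28 of them and CD68 had 1 UMI. C1QA, C1QB, C1QC, CSF1R, CD163, TYROBP and CXCL10 were at 0 in these cells. They held HAND1 and PLET1, genes of the trophectoderm, at 1697 and 13134 CPM, against 837 and 4763 CPM in the other day 12 embryo cells. In the day 9 embryo 4 of 9852 kept cells met the rule, with 18 CD14 UMIs in 3 of them. AIF1 (6 UMIs), TYROBP (5) and CSF1R (1) each had UMIs in 1 of these 4 cells, and the C1q genes, CXCL10, HAND1 and PLET1 were at 0. These cells are too few for a description.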

How the data were processed

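Per the labels' protocols, single cells were captured with a 10X Genomics Chromium 3' kit, which tags molecules with UMIs. The deposited matrices hold raw UMI counts per gene and barcode, with no normalization by the authors. Cell Ranger 6.1.2 and the build Sscrofa11.1 are named in the submitters' processing notes, with no roles given for either, and no source used here tells how cells were chosen. The members, gene lists and tests were chosen with earlier results of these data known.

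Cells with 1000 or more UMIs, 500 or more genes and at most 20% of UMIs from 13 mitochondrial genes were kept, and no doublet caller was run. The files list 21280 genes, 14811 with a symbol, and 694 more took 1 from a table of gene names; 319 of 374 genes on 28 lists matched. UMIs were summed over the cells of a set and given as counts per 1000000 (CPM). Intervals are exact: Poisson for levels, binomial for shares and conditional binomial for ratios. A gene at 5 CPM or more in either set was called higher or lower at a 2-fold ratio whose 95% interval left out 1; log2 ratios have 1 CPM added. Each group had 1 library, so no test across samples was possible and no p is given. The named genes were those with the highest and lowest log2 ratios among genes with a symbol at 50 CPM or more in either set, without genes of the rule and mitochondrial, ribosomal protein and haemoglobin genes; genes outside that rule came from the lists or, for the C1q split, were chosen after their values were seen. Shares were thinned to 1000 UMIs per cell with a fixed seed. Levels in stromal, endothelial, epithelial and T cells came from cells picked by fixed marker sums. Some genes on the lists are counted but not reported here by name. The calling was tested on simulated data. Alternatives varied the cell filters, rule sum, CXCL10 threshold, thinning, weighting of cells and cells with RNA of other lineages. Python 3.11.15, numpy 2.4.6, scipy 1.17.1 and pandas 2.3.3 were used, with matplotlib 3.10.9 for figures.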

Additional observations from a re-analysis of the deposited data

Results flagged for a closer look

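For 2 genes of tissue macrophages the difference between members and the other cells of the same library pointed opposite ways on the 2 days. FOLR2 had a log2 ratio of members over others of -1.04 on day 12 and 1.70 on day 9. SLC40A1, which encodes the iron exporter ferroportin, had -1.45 on day 12 and 3.30 on day 9. With 1 library on each day these differences between days were not tested. In the embryo, outside the tissue described, 179 cells of day 12 met the rule, all with an AIF1 UMI and with every C1q gene at 0.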

How the results depend on the processing

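No paired analysis was possible because each group holds 1 library, and no replicate could be left out. The members' share was 7.79% with 2000 UMIs required, 6.996% at a rule sum of 4, 5.18% at 10 and 5.28% with the rule on thinned cells; the day 9 share was 9.81% at 4, 6.79% at 10 and 6.88% without other-lineage cells. CXCL10-high cells made up 77.5% with 2000 UMIs and 66.0% at a sum of 4. Between days, 998 genes were lower at a sum of 10, 477 higher and 656 lower after thinning, 883 lower without other-lineage cells and 827 lower in C1Q-high cells. Between CXCL10-high and CXCL10-low members, 865 were higher and 1678 lower by mean per-cell CPM (called by fold alone), 96 and 271 after thinning, and 41 and 88 among the 35 members with under 3 UMIs of other lineages (25 CXCL10-high, 10 CXCL10-low); members against others then gave 633 and 618. Of the C1q split, 169 were lower after thinning. Signs turned for the Fc receptor list between days (median log2 ratio -0.14 at a sum of 10, -0.069 by mean CPM, -0.0020 thinned, -0.19 without other-lineage cells, -0.18 in C1Q-high cells). Among those 35 members they turned for the cell cycle list against others (-3.22), and, in the CXCL10 split, for OLR1 (-1.54), SHTN1 (-1.54), JCHAIN (0.41) and the smooth muscle list (4.34). They also turned for JCHAIN split at 5 CXCL10 UMIs (2.88), for ACP5 (0.41), MEP1B (3.89) and UABP-2 (1.32) in members of 2000 to 10000 UMIs, and in the C1q split for UABP-2 (-0.020 without other-lineage cells), MEP1B (-0.20) and CD69 (-1.07), both between members with 0 and with 20 or more C1q UMIs. Of list medians 873 values kept to the original, 30 moved and 7 turned; of named genes 420 kept, 269 moved and 10 turned; of shares and counts 94 kept and 23 moved. Alternatives dropping other-lineage cells, comparing C1Q-high cells and splitting by C1q were chosen after seeing the data. Counting depth limits genes under 5 CPM, the 15 CXCL10-high cells of day 9, and any statement on animals; the cause of these shifts was not tested.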
